A study of Homo sapiens with 2 samples.

Results

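Among the RUNX1 peaks of MCF10A cells was a group that was wide but not tall. They were selected on their measured width and height, at least 300 bp and under 35 tags, with summits on chromosome 21 between 8.2 and 8.45 Mb left out, and they numbered 822 of 13591 peaks in all. The height, or pileup, is the number of ChIP tags, each extended to 74 bp, that covered the summit. MCF10A is an established line of human breast epithelium that forms no tumours when unaltered. The paper reports that deleting RUNX1 transformed cells of this line, in culture and in mice. The cells had their own RUNX1 deleted, and RUNX1 was returned to them on a lentivirus whose expression depends on doxycycline, given at 1 µg/ml over 24 h. Both libraries, 1 from the anti-RUNX1 immunoprecipitate and 1 of input DNA, came from these cells, so no uninduced or RUNX1-free control was compared here. There were no replicates, and errors are 95% intervals that cover counting error only and treat peaks as independent. The ChIP library held 80338845 kept tags and the input library 87410774.

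Through its Runt domain RUNX1 contacts DNA directly, and the partner protein CBFB strengthens this contact. The bound core is read as TGTGGT or TGCGGT. RUNX factors are known for their roles in blood and epithelial lineages, where they act at distal enhancers as well as at promoters. In a ChIPseq peak list, the width is the stretch over which the tag cover stayed above the calling limit, and the height is the cover at the summit.

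The question of which sequence lies under wide peaks could be asked at RefSeq promoters. The RefSeq windows (GRCh38.p14) run from 250 bases before a gene's start to 50 after it, and 14 wide peaks had their summit in one. Of these 14 windows, 9 held TGTGGT or TGCGGT on either strand (64.3%, 95% Wilson interval 38.8 to 83.7%), and 7 held at least 2 matches. Windows are printed below, 5′ to 3′ on the gene's strand, to show how matches were spaced, each cut to 270 bases that end 20 bases after the start. Capitals mark each match to TGTGGT or TGCGGT, or to the reverse complements ACCACA and ACCGCA. EHF (chr11:34624007-34624276, plus strand) encodes an epithelial ETS-family transcription factor. LINC02955 (chr12:23175398-23175667, plus strand), LOC105374382 (chr2:28359405-28359674, plus strand) and LOC105378494 (chr10:114320756-114321025, plus strand) are long non-coding RNA genes. MSL2 (chr3:136194449-136194718, minus strand), a gene for a ubiquitin ligase of a histone acetylation complex, is shown as a window without a match.
EHF: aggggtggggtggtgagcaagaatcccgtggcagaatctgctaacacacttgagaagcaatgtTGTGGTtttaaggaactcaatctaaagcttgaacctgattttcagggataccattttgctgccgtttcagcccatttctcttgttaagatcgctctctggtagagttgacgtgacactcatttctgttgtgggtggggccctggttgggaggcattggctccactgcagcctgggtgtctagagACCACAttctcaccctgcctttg
LINC02955: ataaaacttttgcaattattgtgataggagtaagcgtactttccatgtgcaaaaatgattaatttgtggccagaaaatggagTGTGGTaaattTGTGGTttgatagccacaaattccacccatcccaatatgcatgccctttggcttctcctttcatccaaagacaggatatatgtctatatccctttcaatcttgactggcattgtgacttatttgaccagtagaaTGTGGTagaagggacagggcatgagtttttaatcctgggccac
LOC105374382: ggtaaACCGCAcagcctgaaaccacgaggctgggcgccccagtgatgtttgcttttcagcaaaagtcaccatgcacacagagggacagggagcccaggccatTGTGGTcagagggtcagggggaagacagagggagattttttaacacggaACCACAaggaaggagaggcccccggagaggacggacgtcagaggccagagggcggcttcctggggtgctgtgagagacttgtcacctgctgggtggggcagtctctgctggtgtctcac
LOC105378494: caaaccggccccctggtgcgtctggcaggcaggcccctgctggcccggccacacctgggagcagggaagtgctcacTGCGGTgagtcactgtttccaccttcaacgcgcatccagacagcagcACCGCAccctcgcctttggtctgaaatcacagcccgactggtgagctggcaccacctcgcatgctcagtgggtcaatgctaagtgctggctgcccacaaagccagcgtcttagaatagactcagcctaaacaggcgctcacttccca
MSL2: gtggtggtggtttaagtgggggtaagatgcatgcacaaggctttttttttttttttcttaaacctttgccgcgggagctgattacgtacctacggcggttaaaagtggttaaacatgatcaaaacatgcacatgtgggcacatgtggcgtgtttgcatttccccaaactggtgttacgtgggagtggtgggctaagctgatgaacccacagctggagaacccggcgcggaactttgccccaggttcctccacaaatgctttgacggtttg

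These 5 windows were chosen after their matches were seen. At EHF the peak was 363 bp wide with 22 tags (exact 95% Poisson interval 13.8 to 33.3). Its summit lay 37 bases after the start, past the end of the printed stretch, and the nearer match was 37 bp from it. At LINC02955 the peak was 303 bp wide with 24 tags (15.4 to 35.7), and the nearest of 3 matches was 8 bp from the summit. At LOC105374382 a peak of 302 bp and 28 tags (18.6 to 40.5) had the nearest of its 3 matches 5 bp away. At LOC105378494, with 430 bp and 25 tags (16.2 to 36.9), the distance was 28 bp. The MSL2 peak was like these in size, 305 bp and 25 tags, with no match in its window. Over the 9 windows with a match, the median distance from summit to nearest match was 21 bp, and 8 were within 50 bp.

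Narrow peaks had the motif as often. Of 198 windows that held the summit of a peak under 150 bp and under 35 tags, 126 had a match (63.6%, 56.7 to 70.0%). The share was 68.0% (60.2 to 74.8%) of 153 windows for peaks of middle width, from 150 to 299 bp, under the same height limit. For peaks of 35 tags or more it was 54.5% (28.0 to 78.7%) of 11 windows. All 35116 windows in the table, with or without a peak, gave 19.6% (19.2 to 20.0%). Matches near the summit were not particular to wide peaks. The median distance from summit to nearest match was 23.5 bp for narrow peaks, against 21 bp for wide ones, with 106 of 126 within 50 bp. For peaks of middle width it was 31 bp, with 74 of 104 within 50 bp. The median GC content was 58.7% in the 14 windows, 63.2% in the windows with narrow summits and 58.7% in all windows. Wide peaks therefore held no detectably larger share of windows with the motif than narrow ones, although 14 windows leave a broad interval. The windows also differed in kind. Of the 14, 6 belonged to protein-coding genes and 8 to long non-coding RNA genes, against 163 and 35 of the 198. Shares within each kind of gene were not compared. Counted over the promoter bases that the peaks covered, matches came at 3.77 per kb in wide peaks (21 in 5567 bases), 6.23 per kb in narrow peaks (127 in 20399 bases) and 0.741 per kb over all windows. The 5567 bases are more than 14 windows of 300 bases hold, so other covered windows were included. Wide peaks also take in bases farther from the summit than narrow ones, so these densities are not like for like. A match is a run of letters and not a measured site, and the 14 windows stand for 14 of the 822 peaks.

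**Figure D1:**
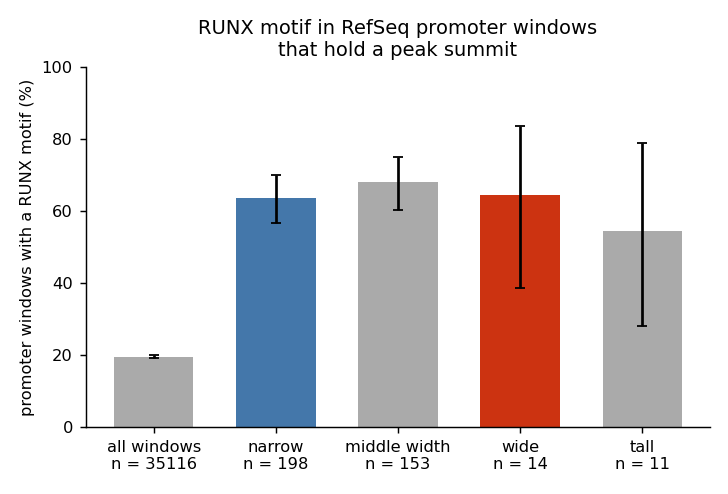
Share of RefSeq promoter windows with TGTGGT or TGCGGT on either strand, for all 35116 windows and for those that hold the summit of a narrow, middle-width, wide or tall peak; bars are percentages and lines are 95% Wilson intervals. Windows with a summit of any width stood at 54.5 to 68.0%, against 19.6% of all windows.

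The rule itself fixed the width and the height, so the next values are a description. The 822 peaks had a median width of 345 bp (quartiles 318 and 396.75), up to 1055 bp, and a median pileup of 26 tags (quartiles 22 and 30), from 13 to 34. Their fold enrichment over the local background ran from 2.63 to 10.9, with a median of 7.18, and their median −log10 q was 12.2. The 6479 narrow peaks under the same height limit had a median pileup of 15 tags. Width rose with height in the list. Wide peaks were 2 of the 922 peaks of 13 tags, 40 of 749 at 20 tags, 51 of 165 at 30 tags and 43 of 96 at 34 tags. Only 1 narrow peak had 34 tags, so narrow and wide peaks were compared within each whole-number pileup and the differences were pooled (Mantel-Haenszel).

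**Figure D2:**
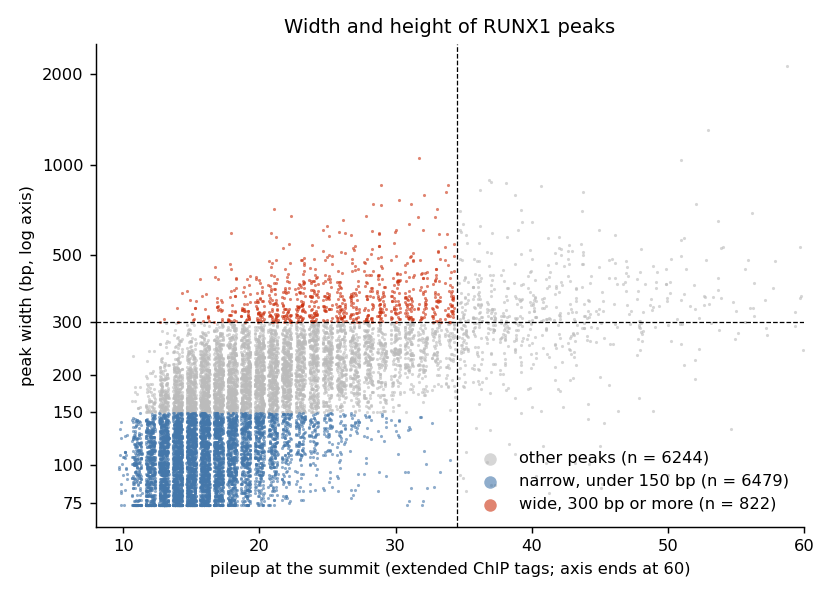
Width in bp (log axis) against pileup in tags for each peak outside the chromosome 21 stretch, with small sideways jitter; dashed lines are the limits of 300 bp and 35 tags, and the horizontal axis ends at 60 tags. The 822 wide peaks form the upper edge of a cloud in which width rises with height, with no gap at either limit.

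There was no break at the limits. The 124 peaks of 300 to 309 bp had a median pileup of 24 tags and the 128 of 290 to 299 bp, just outside, had 25. At 34 tags 43 wide peaks had a median width of 357 bp, and at 35 tags 32 had 361 bp.

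The input level is the local background in tags, recovered from pileup and fold enrichment. Its lowest value over all peaks was 1.00 times the genome background, so input below that level cannot be told apart from it. Values above it often repeated, such as 1.25, 1.67, 2.09 and 2.50 times. Over all heights the median input level was 1.17 times the genome background in wide peaks and 1.08 times in narrow ones. It exceeded 1.5 times in 23.1% and 19.9%. In the range of 20 to 34 tags the order was the other way. There the median input level was 1.20 times the genome background of 2.20 tags in 727 wide peaks and 1.35 times in 927 narrow ones. It exceeded 1.5 times the background in 23.5% of those wide peaks and in 43.7% of those narrow peaks. The input level comes from the same comparison as the height, so its difference is a description, and the main differences below were also computed within classes of input level.

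The widest members lay in varied surroundings. The widest, 1055 bp with 32 tags (21.9 to 45.2), was inside NINL, a centrosomal protein gene, at chr20:25548416-25549470, over an input level 2.50 times background. The next was 855 bp with 29 tags inside ATP9B, a gene for a lipid-flipping ATPase, and the one after it 853 bp with 34 tags, 1587 kb from SI, the nearest protein-coding gene. A peak of 808 bp and 34 tags (23.5 to 47.5) covered part of IL1A, which encodes the cytokine interleukin 1 alpha, at chr2:112776327-112777134, with an input level at background. Near IRF1, a transcription factor of the interferon response, a peak of 736 bp lay 22.4 kb outside the gene, with 29 tags and a fold enrichment of 4.61 over an input level 2.50 times background. The others among the 12 widest were in or nearest to TMEM209, IP6K3, DRD1, DIS3L2, LOC105379504, PNPLA7 and METRNL, with 677 to 794 bp and 21 to 33 tags. METRNL had the lowest fold enrichment of the 12, 3.53. The promoter window of LOC105379504, which held the summit of its peak, consists of short repeats.

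The 17 members with the highest −log10 q shared 34 tags, the tallest that the rule allows, and a fold enrichment of 10.9. Among the first 12 by start position were those in ADARB2, TEAD1, TBC1D22B, CACNA2D2, GLIS1, LRIG3 and IL1A, or nearest to NT5M, KCNJ2, SEPTIN9 and MLYCD. They were 315 to 808 bp wide, so that the same height went with widths from near the limit to far above it. Members of exactly 300 bp, the narrowest, had 13 to 34 tags. The 5 of them with the highest −log10 q were in ANKRD11, TTC28, ANKH and MTHFD2 and 32.4 kb from DLEU7, with 27 to 34 tags, and those with the fewest tags were nearest to BEGAIN, with 13, and VWA2, with 14.

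Wide peaks lay inside protein-coding genes more often than narrow peaks of the same height. Of the 822, 432 had their summit in such a gene (52.6%, 49.1 to 55.9%), against 3032 of 6479 narrow peaks (46.8%, 45.6 to 48.0%) and 47.4% of all peaks outside the chromosome 21 stretch. Matched on pileup, the difference was 8.58 percentage points (95% interval 3.69 to 13.5). It was 12.4 points (6.81 to 18.0) at 20 to 34 tags. Below 20 tags, where only 95 members fell, it was -3.39 points (-13.4 to 6.58), and whether these heights differ was not tested. Matching on input level as well, a setting added after the data were seen, kept 744 of the 822 wide peaks. The difference was then 6.70 points (1.80 to 11.6). When only peaks at background input were kept, however, it was 4.62 points with an interval from -3.89 to 13.1. The share inside genes was close on both sides of the limits, 52.4% at 300 to 309 bp and 50% at 290 to 299 bp. Among peaks of at least 300 bp it was 55.8% at 34 tags, 56.25% at 35 tags and 50.5% at 35 or more. By width at 20 to 34 tags, it was lowest at 74 to 99 bp, 37.2%, with a median input level of 1.67 times background. It was 45.1% at 100 to 149 bp, 46.1 to 50% from 150 to 299 bp and 49.7 to 56.3% in the wide classes.

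Gene ends and start sites showed no detectable difference. The summit was no more than 1 kb from a protein-coding gene's nearer end in 59 wide peaks (7.18%, 5.61 to 9.15%) and in 7.87% of narrow ones, with 7.35% over all peaks. The matched difference was 1.02 points (-1.42 to 3.46). Start sites were known for 15842 of 20033 protein-coding genes, and the 44 members on chromosome 8 had none to compare with. Of the other 778 members, 41 lay within 1 kb of a start (5.27%, 3.91 to 7.07%). The share was 6.47% in narrow peaks and 5.96% in all peaks. Matched on pileup, the difference was 1.57 points (-0.81 to 3.95). The median distance from the nearest gene end was 28.2 kb in both sets once narrow peaks were weighted to the heights of the wide ones, which left an effective number of 170 narrow peaks (interval of the wide median 23.8 to 30.9 kb).

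Outside genes, the 390 remaining wide peaks were a median of 32.8 kb from the nearest protein-coding gene (quartiles 9.75 and 106 kb), against 36.9 kb (9.99 and 128 kb) for narrow peaks. Of all members, 66 were outside but within 5 kb, 76 at 5 to 20 kb, 146 at 20 to 100 kb and 102 beyond 100 kb. Those beyond 100 kb were 12.4% of members, against 15.6% of narrow peaks and 14.8% of all peaks. A distance over 1 Mb was reached by 5 members, nearest to KCNT2, EPHA6, SI, ARAP2 and TENM3, with 26 to 34 tags. They were 0.61% of members, against 0.68% of narrow peaks at that distance. When genes of every kind were counted, 540 members (65.7%) lay in one, of which 101 (12.3%) were in a long non-coding RNA gene and in no protein-coding gene. Narrow peaks gave 61.5% for the former and 12.5% for the latter, and all peaks 62.0% and 12.7%.

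Among the members near start sites, the one closest to a start was the EHF peak. DYNC2H1 (304 bp, 18 tags), ANXA2R (498 bp, 31 tags), MSL2 and BZW1 (379 bp, 15 tags) were among those that followed within 0.179 kb, and SLC4A2, an anion exchanger gene, had a peak of 402 bp and 29 tags at 0.208 kb. A peak of 480 bp and 34 tags lay in the promoter window of ANAPC13, 0.205 kb from the start of its neighbour CEP63. WNT5B, a Wnt ligand gene, had a peak of 322 bp and 30 tags at 0.573 kb, and IL6R, the interleukin 6 receptor gene, one of 353 bp and 33 tags at 0.574 kb over an input level 2.50 times background. RUNX1 itself had 1 wide peak of modest height among its 17 peaks, 348 bp wide with 17 tags (9.90 to 27.2), inside the gene and 0.510 kb from one of its starts.

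Wide peaks also had company more often. Another peak of any kind lay within 10 kb of 347 members (42.2%, 38.9 to 45.6%), compared with 31.2% (30.1 to 32.4%) of narrow peaks and 33.4% of all peaks. Matched on pileup, the difference was 7.06 points (2.29 to 11.8), and 7.29 points (2.60 to 12) when input level was matched too. It was 1.91 points (-5.93 to 9.74) at background input, and 2.72 points (-2.85 to 8.29) against peaks under 120 bp. The peak caller joined stretches no more than 54 bp apart, which bears on both width and the number of neighbours, and its part in the result was not tested. The share was 40.3% (36.6 to 44.1%) for peaks of 35 tags or more, an interval that overlaps that of wide peaks. Such a tall peak lay within 10 kb of 32 members. Members seldom neighboured each other: 20 pairs of adjacent members were within 10 kb and 5 within 1 kb.

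The closest group was in BAHCC1, a chromatin protein gene and the only one of 20033 with 3 members. They spanned 81424807 to 81426439 on chromosome 17 and were 347, 429 and 408 bp wide with 27, 24 and 30 tags. The input level was 2.92 times background at the outer peaks and 1.02 times at the middle one, so that the outer folds were 3.77 and 4.17 and the middle one 7.71. Another pair of neighbours, 329 bp with 28 tags and 424 bp with 17 tags, lay 0.752 kb apart near the start of PCDHAC1 in the protocadherin alpha cluster. That pair was counted for each of the 14 overlapping PCDHA and PCDHAC genes whose bodies span it.

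**Figure D3:**
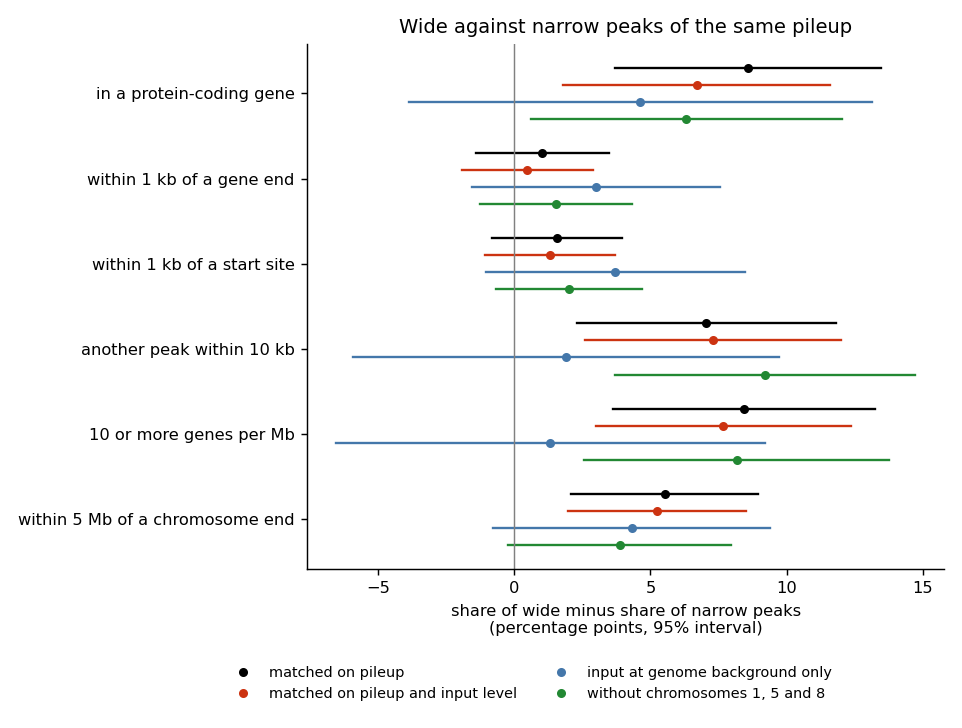
Share of wide minus share of narrow peaks in percentage points, with 95% intervals, for 6 measures of location, under matching on pileup, on pileup and input level, at background input only, and without chromosomes 1, 5 and 8. Gene bodies, neighbours, gene-dense surroundings and chromosome ends lay above 0 when matched on pileup (8.58, 7.06, 8.43 and 5.52 points), while at background input all intervals included 0.

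The surroundings of wide peaks were richer in genes. At least 10 protein-coding genes had their midpoint within 500 kb of 349 members (42.5%, 39.1 to 45.9%), compared with 36.0% (34.8 to 37.2%) of narrow peaks, a matched difference of 8.43 points (3.61 to 13.3). It was 7.67 points (2.98 to 12.4) with input level matched too and 1.32 points (-6.54 to 9.19) at background input. Peaks of 35 tags or more had a share of 44.2% (40.5 to 48.0%), about that of wide peaks, and all peaks 37.5%. This measure and the next were chosen after the data were seen.

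Wide peaks were more frequent near the ends of chromosomes. Within 5 Mb of an end lay 132 members (16.1%, 13.7 to 18.7%), compared with 9.34% (8.65 to 10.1%) of narrow peaks and 10.2% of all peaks. Ends were taken as the first base and the end of the last RefSeq gene, and short arms of chromosomes 13, 14, 15, 21 and 22 were not counted. Matched on pileup, the difference was 5.52 points (2.09 to 8.94), and with input level matched too it was 5.25 points (1.98 to 8.52). Without chromosomes 1, 5 and 8, where the compared peaks had median input levels of 1.27 to 1.36 times background, it was 3.87 points (-0.23 to 7.97), and at background input 4.31 points (-0.78 to 9.40).

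The share near chromosome ends was highest in the widest peaks. At 20 to 34 tags it was 8.66 to 11.0% in the 4 classes of width from 100 to 299 bp, 15.1 to 15.6% in the 3 classes from 300 to 499 bp, and 30.2% (19.5 to 43.5%) in 53 peaks of 500 bp or more. Of all 54 members of 500 bp or more, 16 were within 5 Mb of an end, on 12 chromosomes. Of these 16, the nearest to an end was the METRNL peak, 0.116 Mb away on chromosome 17. Others were inside LMLN, a peptidase gene, with 522 bp and 28 tags, inside RASA3, a Ras GTPase activator gene, with 669 bp and 32 tags, and inside ATG4B, an autophagy protease gene, with 605 bp and 32 tags. Peaks of 543 to 627 bp were also inside SNTG2, PLEC, SBNO2 and SRRM2, within 2.77 Mb of an end. In these 16 the input level was at most 1.67 times background apart from METRNL, at 2.50 times.

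**Figure D4:**
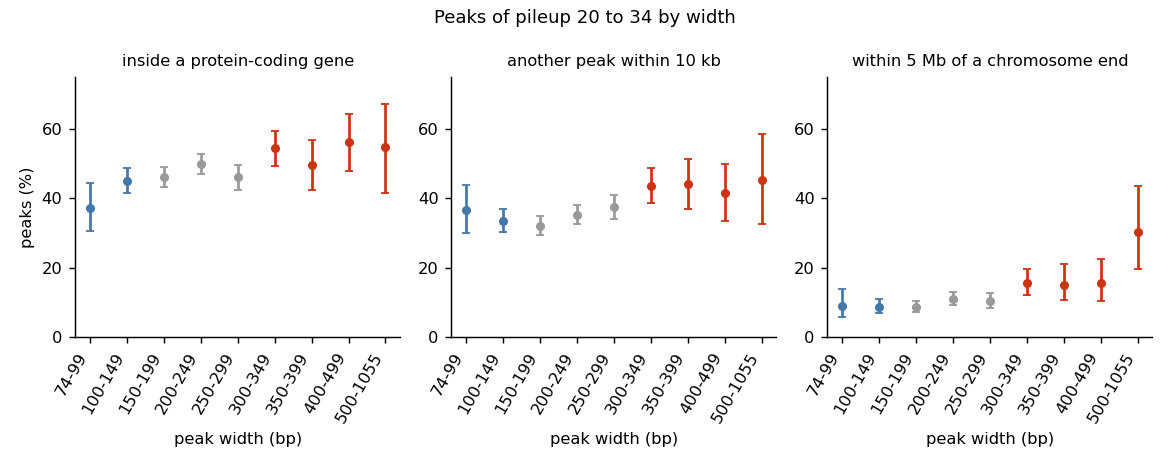
Share of peaks of 20 to 34 tags, by width class in bp, that lay inside a protein-coding gene, had another peak within 10 kb, or lay within 5 Mb of a chromosome end; points are percentages with 95% Wilson intervals, blue narrow, grey middle and red wide. The share near chromosome ends was 15.1 to 15.6% from 300 to 499 bp and 30.2% from 500 bp.

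Single chromosomes contributed unequally. Chromosome 1 held 79 wide and 718 narrow peaks, and its share of wide peaks differed by -12 points from that of narrow peaks of the same height (interval of the difference -15.2 to -8.77). Chromosomes 5 and 8 were also lower, by -5.44 (-7.88 to -3.00) and -3.28 points (-5.61 to -0.94). Without matching, chromosome 1 held 9.61% of wide and 11.1% of narrow peaks, and chromosome 5 held 5.47% and 7.08%. On chromosome 8 the unmatched order was the other way, 5.35% and 4.57%. These are the chromosomes with the raised input levels given above. With input level matched too, the differences were -6.55 points (-9.51 to -3.60) for chromosome 1, -1.71 (-4.03 to 0.61) for chromosome 5 and -1.45 (-3.65 to 0.75) for chromosome 8. Chromosome 17 held 56 wide peaks (6.81%) and 4.31% of narrow ones, a difference of 3.75 points (1.42 to 6.08). It was 3.05 points (0.66 to 5.43) with input level matched too, but -0.36 points (-4.24 to 3.52) at background input. Chromosomes 9, 14 and 22 were the others with an interval above 0. These are 7 of 24 intervals, not adjusted for their number, and with input level matched 5 excluded 0.

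By gene, 512 of 20033 protein-coding genes (2.56%) held a wide peak in the gene or within 5 kb, and 3083 (15.4%) a narrow one. Both kinds were present in 255 genes, 49.8% of those with a wide peak and 8.27% of those with a narrow one. Genes with a wide peak had a median length of 88.3 kb, with a narrow peak 67.3 kb, and all genes 24.1 kb. Of the 512, 461 had 1 member, and 51 had 2 or more, among them VDR, the vitamin D receptor gene (21 and 22 tags), ACTN1, an actin crosslinker gene (20 and 22 tags), TFEB, a transcription factor of lysosomal genes (28 and 24 tags), and GLIS1, a zinc finger transcription factor gene (34 and 34 tags). Some of the 51 shared their pair of peaks, namely the overlapping PCDHA and PCDHAC genes, RASL12 with SLC51B, and SPON2 with LOC124900647. Genes with 2 members were singled out after their values were seen.

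Of 11 gene lists, the TGF-beta pathway had the largest count. Wide peaks were assigned to 5 of its 20 genes (25%), beside 2.56% of all genes, and narrow peaks to 10 of 20, beside 15.4%. Its genes had a median length of 81.3 kb, longer than the 24.1 kb of all genes. TGFB1, the ligand, had a peak of 20 tags (12.2 to 30.9), 2.61 kb outside the gene. TGFBR3, the co-receptor betaglycan, had 2, one of 449 bp and 33 tags (22.7 to 46.3) with a fold enrichment of 4.57, and one of 429 bp and 28 tags (18.6 to 40.5) with a fold enrichment of 9.06 at 0.706 kb from a start.

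Further down the same pathway, SMAD3, which carries the signal to the nucleus, had a peak of 313 bp and 22 tags (13.8 to 33.3), 9.36 kb inside the gene from its nearer end. SKI, a repressor of SMAD proteins, had 2 peaks of 21 tags each (13 to 32.1), at 300 and 315 bp. LTBP2, a matrix protein of the family that includes binders of latent TGF-beta, had one of 306 bp and 33 tags. These 7 peaks on 4 chromosomes lay between 20 and 33 tags, a range bounded by the height limit. The input level was 2.92 times background at the TGFBR3 peak of 33 tags. It was 1.67 times at SMAD3, at LTBP2 and at the SKI peak of 300 bp, and 1 to 1.25 times at the others.

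The YAP and TEAD pathway had a wide peak at 3 of 22 genes and a narrow one at 8, beside 2.56% and 15.4% of all genes. Its genes had a median length of 73.6 kb, against 24.1 kb over all genes. TEAD1, the DNA-binding partner of YAP, had a peak of 531 bp and 34 tags (23.5 to 47.5), one of the strongest members, 72.6 kb inside the gene. STK3, a kinase of the Hippo pathway, had one of 349 bp and 23 tags, and WWC1, an upstream regulator of that pathway, one of 392 bp and 29 tags. In the Notch pathway 2 of 26 genes had a wide peak and 3 a narrow one. The former were JAG1, a ligand, with 375 bp and 23 tags (14.6 to 34.5) at 1.16 kb from its start, and MAML3, a coactivator, with 327 bp and 23 tags. NOTCH3 had none, and its only peak was not among the narrow ones either.

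Among mammary lineage transcription factors 2 of 18 had a wide peak and 5 a narrow one, again beside 2.56% and 15.4% of all genes. The 2 were EHF and ELF3, both epithelial ETS-family factors. The ELF3 peak was 454 bp wide with 29 tags (19.4 to 41.6), 1.43 kb outside the gene. TGFA, an EGF receptor ligand, was the only one of 15 genes of the EGF receptor family and its ligands with a wide peak, of 443 bp and 28 tags (18.6 to 40.5), while 5 of the 15 had a narrow one. FHOD3 and RNF165 were 2 of the 10 genes of the CBFB and RUNX1 signature, which the study drew from RNA-seq of knockout lines of the same cells and from patient survival, with 3 wide peaks of 19 to 30 tags, and 5 of the 10 had a narrow peak. The FHOD3 peak of 19 tags had the lowest −log10 q of all members, 1.69. Median gene length was 101 kb in the EGF receptor list and 128 kb in the signature, against 24.1 kb over all genes. In the mammary list it was 22.8 kb.

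Some lists had no wide peak of modest height at all. Wide peaks were assigned to 0 of 32 integrin and laminin genes, 0 of 22 keratin genes, 0 of 19 desmosome and cadherin genes and 0 of 11 AP-1 genes, and narrow peaks to 15, 7, 4 and 5 of them. With wide peaks at 2.56% of all genes, counts of 0 in lists of this size are near the background and say nothing particular about these genes. The keratin and AP-1 genes are short, with median lengths of 5.65 and 8.50 kb, whereas the integrin and laminin genes had 83.5 kb. RUNX1 was the only one of the 4 RUNX and CBFB genes with a wide peak, while CBFB had 3 narrow peaks, RUNX2 had 2 and RUNX3 had 0 peaks. Over all lists, 16 of 199 genes (8.04%) had a wide peak, with a median gene length of 41.1 kb. As there is 1 library of each kind, none of these counts was tested.

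**Figure D5:**
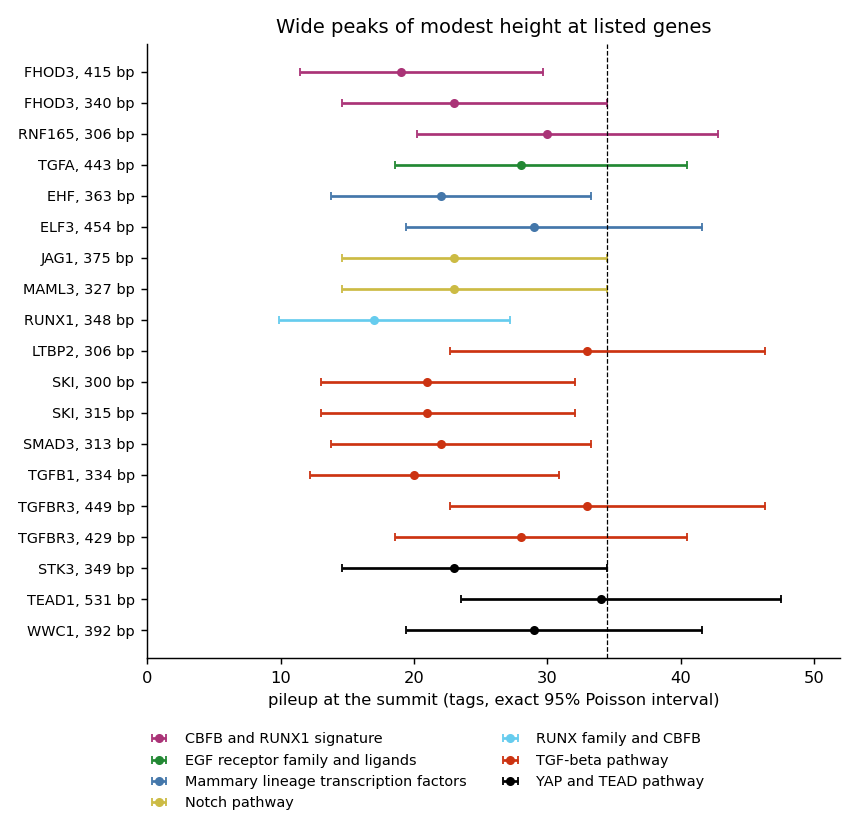
Pileup in tags with exact 95% Poisson intervals for each wide peak of modest height assigned to a gene of the lists, with its width beside the gene's name and the limit of 35 tags dashed; colours are lists. The peaks ran from 17 tags at RUNX1 to 34 tags at TEAD1, and the rule itself kept them under 35 tags.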

How the data were processed

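The authors mapped the libraries to hg38 (Bowtie2 and hg38 are in the submitters' processing notes) and called peaks with MACS 2.1.2 on the ChIP library with the input as control (q under 0.05). Duplicate tags on a strand were reduced to 1 and tags of 54 bp were extended to 74 bp, per the file headers. The same headers list windows of 1 kb and 10 kb for the local background. The deposited pileup is a signal, the deposited fold enrichment is a ratio of pileup to local background, each plus 1, and the deposited q is a −log10 value. Other columns give position and width.

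From these, the input level was computed as (pileup + 1) / fold − 1, and called at background within 1% of the genome-wide value. Genes and start windows are from RefSeq (GRCh38.p14), whose build is that of hg38. Analyses used Python 3.11.15, pandas 2.3.3 and scipy 1.17.1. Shares carry Wilson intervals. Wide minus narrow differences are Mantel-Haenszel risk differences over whole-number pileup strata, checked on simulated data. The simulated strata were more even than the real ones. Intervals for strata with very few narrow or wide peaks were not checked. No p-values were computed, since there is 1 library of each kind. The added input-level matching used 4 classes split at 1.05, 1.3 and 1.7 times background. It kept 744 wide and 4863 narrow peaks, or 684 and 4635 for start sites, those in strata that held both kinds.

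Genes named are those of the 12 widest members, the 12 of highest −log10 q (ties to the lower start), genes with 3 or more members, list genes with a member, RUNX1, RUNX2, RUNX3, CBFB and NOTCH3, and members just inside the limits. Others were named after their values were seen. A gene that the rule names is not reported here. The peak group and the gene lists were chosen with earlier results of these data known. The planned RUNX motif search at summits needs a genome and was replaced by promoter windows.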

Additional observations from a re-analysis of the deposited data

How the results depend on the processing

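Other settings changed some results. The number of wide peaks went from 822 to 1801 with a width limit of 250 bp and to 199 with 400 bp, by construction, and was 603 to 970 under pileup limits of 30 and 40. Restricted to peaks at background input, which leaves fewer peaks, the wide minus narrow difference was 4.62 points for gene bodies, 1.91 for a neighbour within 10 kb, 1.32 for gene-dense surroundings, 4.31 for chromosome ends and -0.36 for chromosome 17, all with intervals that included 0. The neighbour difference was 2.72 points against narrow peaks under 120 bp, the chromosome-end difference 3.87 without chromosomes 1, 5 and 8, and the chromosome 17 difference 2.33 for peaks of 400 bp or more, and these intervals also included 0. The gene-end difference, 1.02 points, turned to -0.0674 with wide peaks from 250 bp, to -0.694 without matching on pileup and to -0.448 with genes of all kinds, its interval including 0 in each. The start-site difference was 4.97 points (0.04 to 9.90) for peaks of 400 bp or more and -1.20 without matching. The median distance to a gene end differed by -3.99 kb between peaks of 400 bp or more and narrow peaks. For these the cause was not tested. The RUNX motif share of promoter windows was 42.9% with TGTGGT alone. Of 90 values under other settings, 74 were classed as unchanged. For differences in share, this meant the same sign and no change in whether the interval included 0. Among the 74 were 10 gene-end and 9 start-site values with intervals that included 0, as in the main setting. They also held 5 peak counts, which have no interval, and 7 median distances, some of opposite sign.

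The planned motif search at summits and its alternatives were not run. No paired analysis was possible because the peak list came from a single ChIP library and a single input. Few narrow peaks were tall, 27 with 30 to 34 tags against 219 wide ones, which limits the matched comparisons most at those heights.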
